A study of Mus musculus with 36 samples.

Results

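The comparison described here set mouse embryonic fibroblasts (MEFs) headed CRE and replenished with methionine for 1 h against MEFs headed CRE in basal medium. The members were chosen by column heading alone, 3 libraries in each group, which is 6 of the 36 libraries of the series, and all genes were read. MEFs are connective tissue cells cultured from mouse embryos. The cells were 1 line with floxed Vps15 alleles (Vps15f/f) that received an adenovirus, adeno-GFP for the cells labelled wild type (WT) or adeno-CRE for those labelled Vps15KO. CRE excises floxed DNA, so any cell that the virus missed would keep the gene. Cells grew in high-glucose DMEM with serum and were then held in basal medium (high-glucose DMEM without serum), in methionine-free DMEM for 4 h, or in methionine-free DMEM for 4 h followed by 1 h or 4 h with methionine added back. Polyadenylated RNA was sequenced. Genes were tested where their mean over 24 MEF libraries stood at least 1 above the lowest value of the table, which left 13914 of 32266.

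The headings can be read in 2 ways, and the readings give different experiments. The deposited columns run through the 4 GFP media and then the 4 CRE media. The library numbers in the labels run through WT and then Vps15KO within each medium. By heading, the comparison is Vps15KO cells at 1 h of replenishment, after 4 h without methionine, against Vps15KO cells in basal medium. By position, column 13 would hold library 13 and column 19 library 19. The columns headed CRE basal would then be WT cells at 1 h of replenishment, and those headed CRE 1 h would be WT cells at 4 h of replenishment. The same values would describe the later against the earlier time after methionine came back, with no knockout library. The headings and the positions give the same group for 6 of the 24 MEF libraries and different groups for 18. Groups are called here by their headings, and a difference is the CRE 1 h value minus the CRE basal value.

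Methionine is an essential amino acid and the source of S-adenosylmethionine, the methyl donor of the cell. When an amino acid is short, uncharged tRNA activates the kinase GCN2, translation slows, and the transcription factor ATF4 is made and switches on genes for amino acid transport, synthesis and stress. Pik3r4 encodes Vps15, a pseudokinase that regulates the class 3 phosphoinositide 3-kinase (class 3 PI3K). That enzyme makes a lipid that marks endosomes and autophagosomes.

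The values are log2 after a variance-stabilizing transformation (VST) that the submitters applied, so a difference of 1 is close to a doubling for well-expressed genes and understates the change of low ones. Counts recovered from the transformation summed to 20971029 to 21072233 per library in the 6 libraries. Replicate libraries differed by more than counting noise, with a chi-square per degree of freedom of 1.82 to 3.46 among these pairs. Nothing in the labels says whether replicates were separate cultures, so the p-values measure only the spread between these samples, which may be technical. Among fibroblast markers, 3 of 11 tested members rose and 2 fell, beside 23.2% and 25% of all tested genes. The summed level of these markers was 15762 to 16896 CPM (counts scaled to the library total) in CRE 1 h and 15781 to 17530 CPM in CRE basal. The summed level of 8 epithelial markers was 0.475 to 0.668 CPM in CRE 1 h and 0.475 to 0.902 CPM in CRE basal, with 2 of the 8 at 0. Endothelial markers summed to at most 0.572 and 0.855 CPM, and hepatocyte markers to at most 0.477 and 0.285 CPM. Macrophage markers summed to 8.37 to 9.55 CPM in CRE 1 h and 7.93 to 8.30 CPM in CRE basal, and neuron or glia markers to 46.1 to 49.4 and 42.7 to 47.0 CPM.

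The amino acid stress genes were lower in CRE 1 h than in CRE basal, and they held 7 of the 12 largest falls under the naming rule. Of 13914 genes, 3229 were higher in CRE 1 h (23.2% of those tested) and 3476 lower (25%), by limma with Benjamini-Hochberg adjusted p under 0.05. Counts for the gene lists are to be read beside these shares. By at least 1 on the log2 scale, 8 were higher (0.0575%) and 72 lower (0.517%). The median over all tested genes was 0.01, with the middle 50% of genes between -0.18 and 0.15. Bringing every library to 1 common median added 0.05 to each difference and turned the calls into 4386 higher and 2767 lower, so the share of higher calls went from 48.2% to 61.3%. The direction of a difference smaller than that shift thus depends on the scaling. The groups did not overlap for 28.4% of tested genes that were higher and for 29.3% that were lower.

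**Figure D1:**
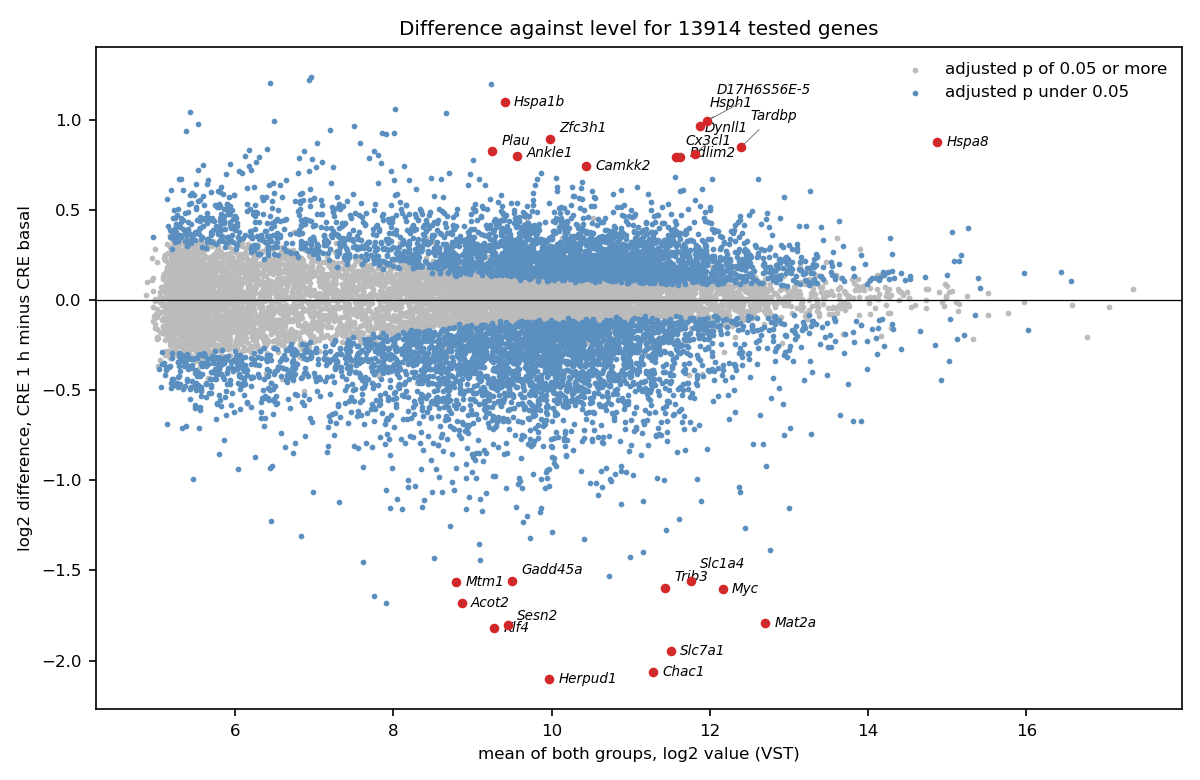
Log2 difference of CRE 1 h minus CRE basal (vertical axis) against the mean log2 value of both groups (horizontal axis) for 13914 tested genes, 1 point per gene, blue where the adjusted p was under 0.05. The named points are the 12 largest rises and 12 largest falls under the naming rule. The falls reach -2.10 (Herpud1), while the named rises end at 1.10 (Hspa1b).

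Of 49 tested members of the ATF4 list, 44 fell and 1 rose, with a median of -0.42. Chac1, which breaks down glutathione, was at 12.20, 12.34 and 12.39 in CRE basal and at 10.23, 10.22 and 10.29 in CRE 1 h. No library of the first group reached down to the second. The difference was -2.06 ± 0.05 (SE, n = 3 per group, limma adjusted p = 2.26e-23), and edgeR on the recovered counts put the level 4.29-fold lower. Trib3, a pseudokinase that ATF4 induces and that restrains stress signalling, was at 12.17, 12.22 and 12.29 in CRE basal and at 10.59, 10.59 and 10.71 in CRE 1 h. Its libraries did not overlap, and it fell by 1.60 (limma adjusted p = 1.94e-22). Herpud1, a membrane protein of endoplasmic reticulum-associated degradation, was at 11.00, 11.12 and 10.92 in CRE basal and at 8.95, 8.88 and 8.91 in CRE 1 h. All 3 libraries of CRE 1 h were low, and Herpud1 had the largest fall under the naming rule at -2.10 ± 0.06 (SE, n = 3 per group, limma adjusted p = 4.47e-24), or 4.57-fold lower by edgeR.

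The promoters of these 3 genes are shown because each holds the letters TGATGNAA, the C/EBP-ATF response element to which ATF4 binds with a partner, on one of the strands. They are RefSeq sequences on GRCm38.p6, the mm10 build, from 250 bases before to 50 bases after the gene's start, read 5′ to 3′ on the strand of the gene, with the match in capitals. The regions are chr2:119350992-119351291 on the plus strand for Chac1, chr2:152344011-152344310 on the minus strand for Trib3 and chr8:94386179-94386478 on the plus strand for Herpud1.
Chac1: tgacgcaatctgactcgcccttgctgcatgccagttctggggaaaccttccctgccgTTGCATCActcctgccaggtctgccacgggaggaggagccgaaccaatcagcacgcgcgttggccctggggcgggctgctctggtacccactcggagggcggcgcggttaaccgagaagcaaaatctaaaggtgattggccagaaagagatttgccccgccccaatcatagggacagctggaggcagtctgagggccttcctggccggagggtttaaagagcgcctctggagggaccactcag
Trib3: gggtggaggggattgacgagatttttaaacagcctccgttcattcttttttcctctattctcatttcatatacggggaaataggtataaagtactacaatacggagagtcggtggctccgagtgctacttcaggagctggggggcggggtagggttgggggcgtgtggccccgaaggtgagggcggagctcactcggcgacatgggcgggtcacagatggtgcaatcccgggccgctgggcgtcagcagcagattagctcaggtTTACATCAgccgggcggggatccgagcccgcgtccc
Herpud1: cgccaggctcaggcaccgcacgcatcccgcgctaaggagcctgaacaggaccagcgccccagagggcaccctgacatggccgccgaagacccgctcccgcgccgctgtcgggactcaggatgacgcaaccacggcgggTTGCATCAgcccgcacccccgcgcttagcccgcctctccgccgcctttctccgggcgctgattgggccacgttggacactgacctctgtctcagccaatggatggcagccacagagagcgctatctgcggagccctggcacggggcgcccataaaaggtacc
On either strand, TGATGNAA was found in 13 of the 41 tested ATF4-list members that have a promoter in the table (31.7%), in 2.24% of the 10604 tested genes that have one and in 4.06% of all 27025 promoters of that length. Among the 55 such genes that were lower by at least 1, 5 held it (9.09%). These sets overlap: Chac1, Trib3, Herpud1 and Slc1a4 are among those 5 and are also ATF4-list members. The list was written around ATF4, so its share does not depend on how its members moved here. Whether ATF4 acted at these sites was not tested. The windows of Sesn2, Slc7a1, Gadd45a, Atf4 and Mat2a held no TGATGNAA, while that of Slc1a4 held 1. No match says only that these letters are not in those 300 bases.

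Sesn2, a leucine-sensing inhibitor of mTORC1, was at 10.18, 10.41 and 10.44 in CRE basal and at 8.49, 8.55 and 8.59 in CRE 1 h. It fell by 1.80 (limma adjusted p = 3.98e-22), with no overlap between the groups. The message of Atf4 itself was at 13.50, 13.60 and 13.64 in CRE basal and at 12.42, 12.45 and 12.42 in CRE 1 h. That is a difference of -1.15 ± 0.04 (SE, n = 3 per group, limma adjusted p = 5.26e-21), smaller than that of the genes above. Ddit3, which encodes the stress factor CHOP, differed by -0.58 (limma adjusted p = 7.26e-10). Amino acid transporters moved the same way: Slc7a1, which carries arginine and lysine, fell by 1.95, and Slc1a4, which carries alanine, serine and cysteine, fell by 1.56. Slc7a1 stood at 12.43, 12.50 and 12.51 in CRE basal against 10.51, 10.56 and 10.54 in CRE 1 h. Gadd45a, a growth arrest gene, fell by 1.56, and Ppp1r15a, the phosphatase subunit that restores translation, by 1.20.

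**Figure D2:**
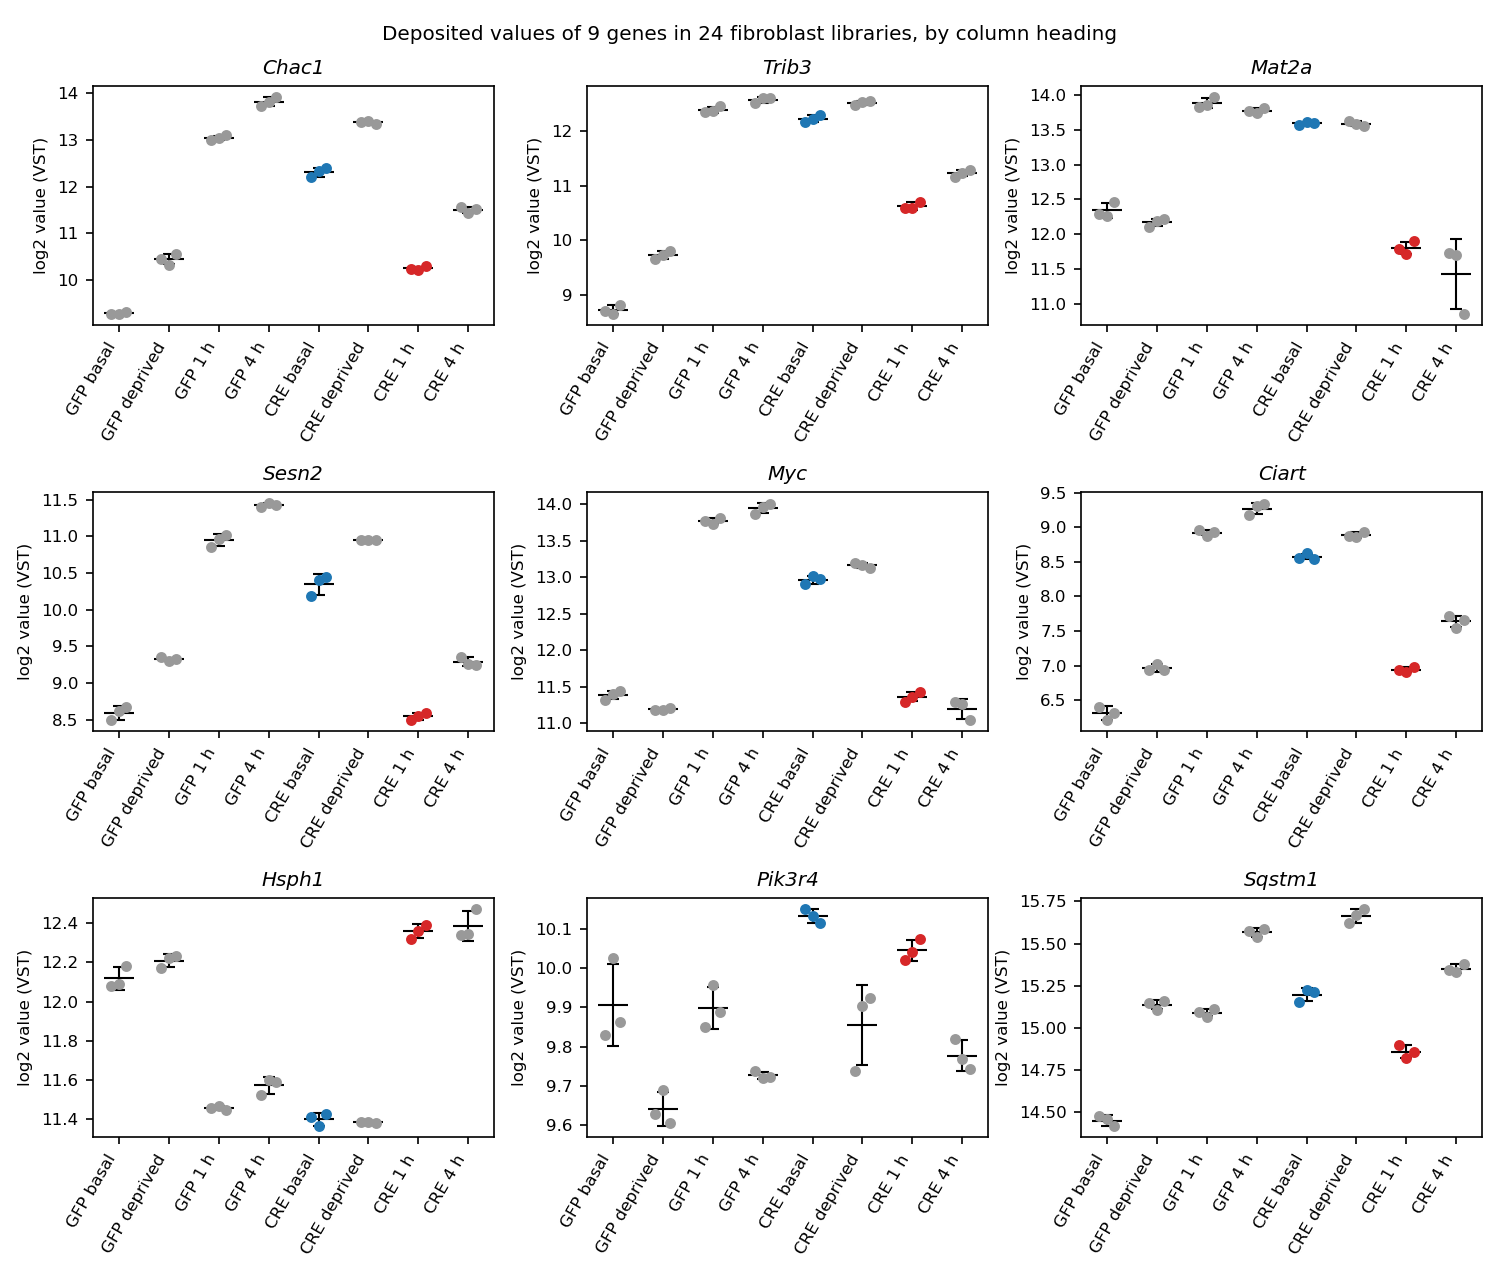
Log2 value (VST) of single genes in each of the 24 MEF libraries, grouped by column heading along the horizontal axis. Chac1 lies at 12.20 to 12.39 in CRE basal and 10.22 to 10.29 in CRE 1 h, and Mat2a at 13.57 to 13.62 and 11.72 to 11.90.

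Genes of the methionine cycle divided, with the largest differences downward. Of 19 tested members 4 rose and 7 fell, with a median of -0.03, and without CRE basal replicate 1 the risen numbered 2. Mat2a, which makes S-adenosylmethionine from methionine and whose message is known to be stabilized when that product is scarce, was at 13.57, 13.62 and 13.60 in CRE basal and at 11.79, 11.72 and 11.90 in CRE 1 h. The groups stood far apart, and the difference was -1.79 ± 0.15 (SE, n = 3 per group, limma adjusted p = 3.17e-08). Its partner Mat2b, the regulatory subunit, fell by 0.21. Mthfd2, a mitochondrial folate enzyme that the ATF4 list also holds, fell by 1.22, and Cth, the last enzyme of transsulfuration, by 0.95. Mtrr, which reactivates methionine synthase, fell by 0.54. The risen members moved little: Ahcy, which hydrolyses S-adenosylhomocysteine, rose by 0.16. Methionine synthase itself, Mtr, was at 0.05 (limma adjusted p = 0.56).

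Of 16 tested genes of polyamine synthesis and methionine salvage, 7 rose and 3 fell, with a median of 0.07. Mtap, which starts the salvage of methionine from methylthioadenosine, rose by 0.56. Got1, a transaminase, fell by 0.41, and Odc1, the first enzyme of polyamine synthesis, by 0.19. Amd1, which decarboxylates S-adenosylmethionine for polyamines, was at -0.05 (limma adjusted p = 0.46). Among 44 histone, DNA and RNA methyltransferases and demethylases, 24 fell and 7 rose, with a median of -0.22. Lysine demethylases led the falls, Kdm6b at -0.69, Kdm4a at -0.61 and Kdm5b at -0.59, with Wtap, a subunit of the RNA m6A methyltransferase complex, at -0.67. Mettl16, the RNA methyltransferase that acts on the Mat2a message, rose by 0.29, and Ehmt2, a histone H3 lysine 9 methyltransferase, by 0.31.

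Early response genes were mostly lower. Of 35 tested members 23 fell and 5 rose, with a median of -0.45, and after the common-median scaling 8 rose. Klf4 fell by 1.82, Myc by 1.60 and Junb by 1.53. Egr1 fell by 0.67 (limma adjusted p = 1.60e-14). Fos was at 0.02 (limma adjusted p = 0.92), while Dusp6, a phosphatase that switches off ERK, rose by 0.67 and Spry2, an inhibitor of receptor tyrosine kinase signalling, by 0.45. Of 21 targets of serum response factor and YAP, 15 fell and 2 rose, with a median of -0.26, and after the common-median scaling 12 fell and 5 rose. Ajuba, a LIM protein that restrains LATS kinases, fell by 1.12, while Actb rose by 0.38. The myofibroblast markers Acta2 and Tagln, which that list also holds, fell by 0.44 and 0.30. The call of Tagln (limma adjusted p = 0.0308) was lost in 5 of the 15 other fits, among them those without CRE basal replicate 1 and without CRE 1 h replicate 2, with adjusted p from 0.0193 to 0.218. The summed level of the 5 myofibroblast markers was 1216 to 1351 CPM in CRE 1 h and 1624 to 1851 CPM in CRE basal. Whether a different mix of cells or less RNA per cell lay behind this cannot be told apart in bulk RNA.

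Circadian clock genes had a median of -0.53, and 15 of 19 fell with none higher. Ciart, a clock repressor, was at 8.56, 8.63 and 8.55 in CRE basal and at 6.94, 6.90 and 6.97 in CRE 1 h. Its groups did not overlap, and it fell by 1.64 (limma adjusted p = 7.83e-19). Falls were found in the repressive arm, Nr1d1 at -0.98, Per2 at -0.86 and Cry2 at -0.98, and in the activating arm, Arntl at -0.72 and Clock at -0.22. Nfil3 fell by 1.15 and Bhlhe41 by 1.07. Of 17 genes of the FoxO and insulin-repressed list, 12 fell and 3 rose, with a median of -0.51. Txnip, which binds thioredoxin and restrains glucose uptake, fell by 1.26, Fbxo32, a ubiquitin ligase of muscle wasting, by 1.23, and Arrdc3 rose by 0.47. Of 21 p53 targets 10 fell and 4 rose. Cdkn1a, the cyclin-dependent kinase inhibitor p21, fell by 1.44 and Plk2 by 1.42. Trp53 itself was at -0.01 (limma adjusted p = 0.82), and Sesn2 and Gadd45a are members of this list as well as of the ATF4 list.

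**Figure D3:**
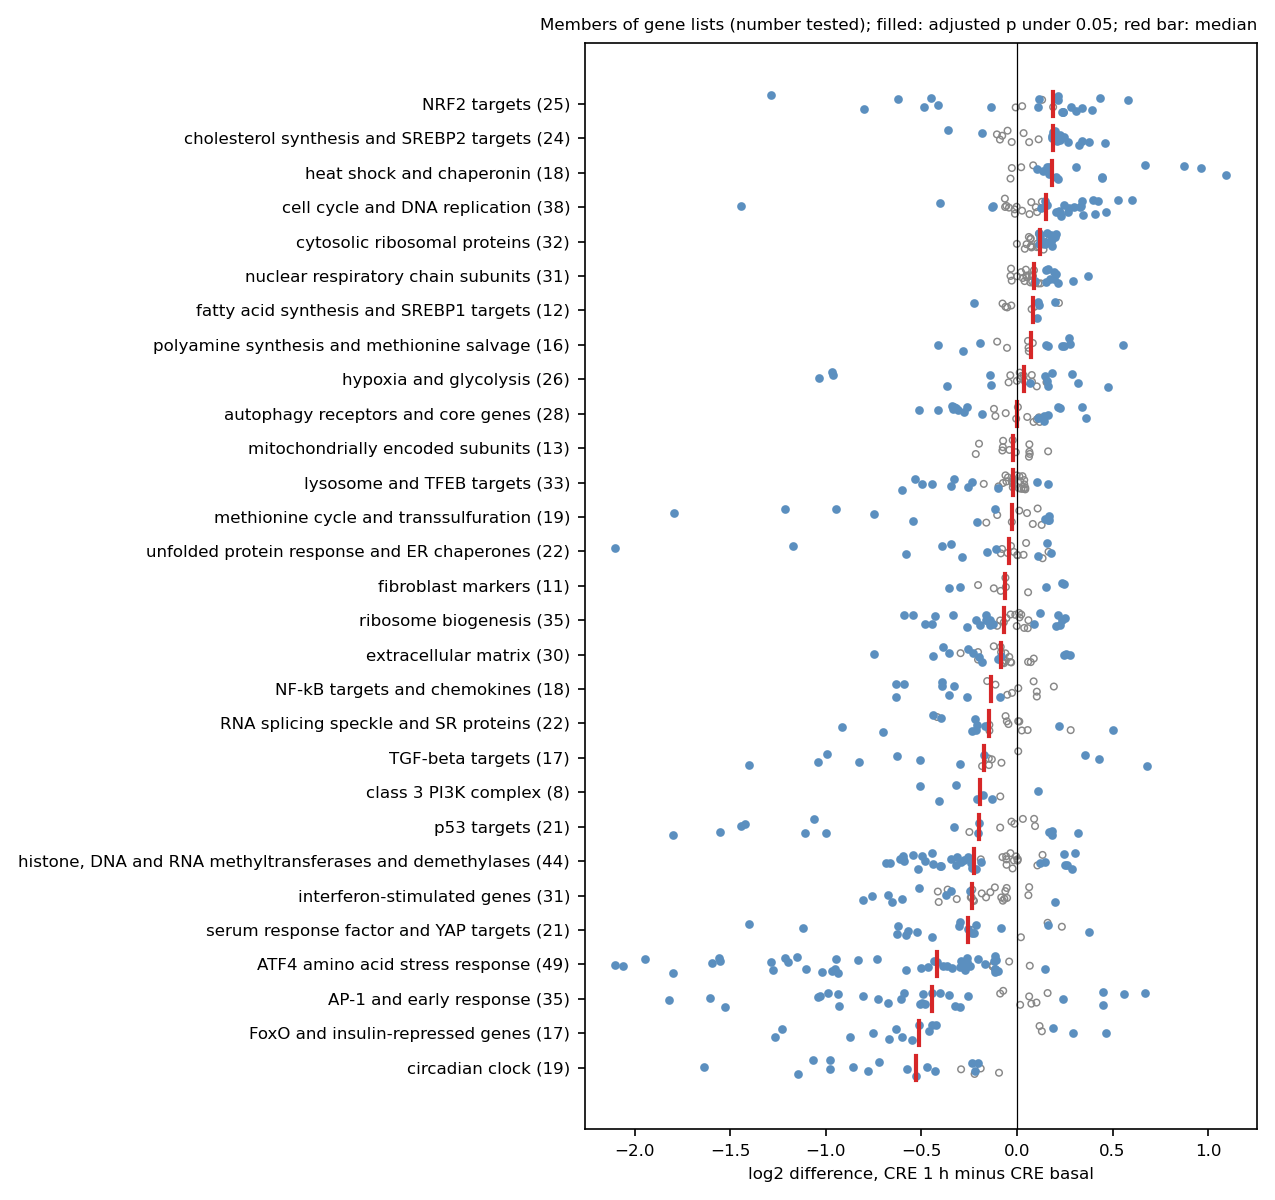
Log2 difference of CRE 1 h minus CRE basal for the tested members of each gene list with at least 8 tested members, 1 point per gene, with the median of each list. The median is -0.53 for clock genes, -0.42 for the ATF4 list and 0.19 for the heat shock list, against 0.01 for all tested genes.

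Heat shock genes rose. Of 18 tested members 14 rose and none fell, with a median of 0.19. Hsph1, an Hsp110 nucleotide exchange factor for Hsp70, was at 11.41, 11.36 and 11.42 in CRE basal and at 12.32, 12.36 and 12.39 in CRE 1 h. All 3 libraries of CRE 1 h lay above CRE basal, by 0.96 ± 0.04 (SE, n = 3 per group, limma adjusted p = 1.69e-19). Hspa1b, the inducible Hsp70, was at 8.87, 8.88 and 8.82 in CRE basal and at 9.78, 9.97 and 10.11 in CRE 1 h. Its libraries did not overlap, with a difference of 1.10 ± 0.08 (SE, n = 3 per group, limma adjusted p = 1.06e-12). Hspa1b has a near-identical copy in Hspa1a, which rose by 0.44, and how reads were divided between them is not given in the sources used here. Hspa8, the constitutive Hsp70, which has many processed pseudogenes, stood at 14.41, 14.47 and 14.43 in CRE basal and at 15.32, 15.29 and 15.31 in CRE 1 h, a rise of 0.87. The co-chaperone Dnaja1 rose by 0.67 and Chordc1 by 0.44, while the chaperonin genes Cct2 and Cct3 were at -0.03 and 0.02 and did not pass the test.

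The promoters of Hsph1 and Hspa1b are shown because each holds GAANNTTC, a pair of facing heat shock element units, in capitals. They are again RefSeq on GRCm38.p6, at chr5:149636287-149636586 for Hsph1 and chr17:34959189-34959488 for Hspa1b, both on the minus strand and read on that strand.
Hsph1: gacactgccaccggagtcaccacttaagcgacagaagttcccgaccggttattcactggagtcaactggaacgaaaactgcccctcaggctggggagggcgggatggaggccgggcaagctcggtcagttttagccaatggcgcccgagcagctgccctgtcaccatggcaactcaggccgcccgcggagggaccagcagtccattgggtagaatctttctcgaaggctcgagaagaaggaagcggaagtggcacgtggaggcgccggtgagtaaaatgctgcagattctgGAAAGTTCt
Hspa1b: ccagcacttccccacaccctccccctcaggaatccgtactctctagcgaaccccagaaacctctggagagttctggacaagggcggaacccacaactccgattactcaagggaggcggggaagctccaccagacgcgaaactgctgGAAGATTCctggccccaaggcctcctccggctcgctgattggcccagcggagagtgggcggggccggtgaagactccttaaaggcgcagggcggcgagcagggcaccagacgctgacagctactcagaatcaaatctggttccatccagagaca
GAANNTTC, which reads the same on both strands, was found in 8 of the 14 tested heat shock members with a promoter in the table (57.1%), in 5.49% of tested genes with one and in 7.96% of all promoters. It was found in 1 of the 55 genes lower by at least 1. The share in the heat shock list, too, does not depend on how its members moved here.

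Among the other large rises under the naming rule, D17H6S56E-5 rose by 0.99, Zfc3h1, a factor that delivers nuclear RNA to the exosome, by 0.89, and Tardbp, the RNA-binding protein TDP-43, by 0.85. Plau, the urokinase plasminogen activator, rose by 0.83, Dynll1, a dynein light chain, by 0.81, and Ankle1, an endonuclease, by 0.80. Cx3cl1, the chemokine fractalkine, rose by 0.80 and Camkk2, a kinase that activates AMPK, by 0.74. Dynll1 has close copies in the genome, so its count is uncertain where reads were shared. Besides Chac1 and its neighbours, the large falls held Acot2, a mitochondrial acyl-CoA thioesterase, at -1.68. They also held Mtm1, the myotubularin phosphatase that removes the lipid made by class 3 PI3K, at -1.57 (limma adjusted p = 7.31e-18).

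Growth genes were higher by small amounts. Of 38 cell cycle and DNA replication genes, 21 rose and 4 fell, with a median of 0.15, and the fallen numbered 2 without CRE 1 h replicate 1 and after the common-median scaling. Cyclin D1 (Ccnd1) rose by 0.60, Ccne1 by 0.53 and thymidine kinase Tk1 by 0.43, and the largest fall was the inhibitor Cdkn1a, above. Mki67 was at -0.06 (limma adjusted p = 0.75). Of 32 cytosolic ribosomal protein genes 15 rose and none fell, with a median of 0.12, among them Rpl11 at 0.20. That count was 5 and 9 without CRE basal replicates 1 and 3, 8 without CRE 1 h replicate 1 or replicate 2, 8 with no filter and 25 after the common-median scaling, and these genes have many pseudogenes. Of 31 nuclear respiratory chain genes 11 rose and none fell, with Sdhd, a complex II subunit, at 0.37. Their count was 7 without CRE basal replicate 1 and 22 after the common-median scaling. Of the 13 mitochondrially encoded subunits 0 passed the test in limma, edgeR or DESeq2. With only the compared groups fitted, or without CRE 4 h replicate 3, which stood apart from its group, ND4 and ND5 passed at -0.20 and -0.22. Of 35 ribosome biogenesis genes 15 fell and 7 rose, with a median of -0.07, and after the common-median scaling 10 fell and 8 rose, with the nucleolar GTP-binding protein Gnl3 at -0.54 and the RNA polymerase I subunit Polr1a at 0.22.

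Of 24 cholesterol synthesis genes 14 rose and 2 fell, with a median of 0.19. Nsdhl and Dhcr7, enzymes late in the pathway, rose by 0.46 and 0.37. Insig1, which holds SREBP in the endoplasmic reticulum, fell by 0.36. Of 12 fatty acid synthesis genes 4 rose, 1 fell and 7 did not pass. The count of rises was 1 without CRE basal replicate 3 and 2 without CRE 1 h replicate 2 or with DESeq2. Srebf1, which encodes SREBP1, fell by 0.22. NRF2 targets divided, 14 of 25 higher and 7 lower. The detoxification enzyme Nqo1 rose by 0.58 and the pentose phosphate enzyme G6pdx by 0.43, while the haem oxygenase Hmox1 fell by 0.80 and Nfe2l2, which encodes NRF2, by 0.62. Of 26 hypoxia and glycolysis genes 8 rose and 6 fell, beside 23.2% and 25% of all tested genes. The risen numbered 5 without CRE basal replicate 1 and 13 after the common-median scaling. Ndrg1 fell by 1.04, the angiogenic factor Vegfa by 0.97 and hexokinase Hk2 by 0.96, whereas Gapdh was at 0.02 (limma adjusted p = 0.60).

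Of the 8 tested genes of the class 3 PI3K complex, 6 fell and 1 rose, with a median of -0.19. Pik3r4, the targeted gene, was at 10.15, 10.13 and 10.12 in CRE basal and at 10.02, 10.04 and 10.07 in CRE 1 h. The libraries did not overlap, yet the difference of -0.09 ± 0.05 (SE, n = 3 per group) did not pass the test (limma adjusted p = 0.165). Reads from the exons that CRE leaves in place still count for the gene, so this value is no check of the excision. Atg14, which directs the complex to autophagosomes, fell by 0.51, Nrbf2, which joins that form, by 0.41, and Uvrag, which directs it to endosomes, by 0.32. The catalytic subunit Pik3c3 was at -0.13 (limma adjusted p = 0.0241) and Becn1, the scaffold, at 0.11 (limma adjusted p = 0.0493). Over the 15 other fits the call of Pik3c3 was lost in 7, with adjusted p from 0.00368 to 0.186, and that of Becn1 in 10, with adjusted p from 0.00312 to 0.199.

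Autophagy genes went both ways, 8 of 28 higher and 10 lower, with a median of 0.00. Over all tested genes 23.2% were higher and 25% lower. The count of autophagy genes higher was 4 without CRE 1 h replicate 1 and 13 after the common-median scaling. The autophagy receptor Sqstm1, also called p62, was at 15.15, 15.22 and 15.21 in CRE basal and at 14.90, 14.82 and 14.85 in CRE 1 h. All 3 CRE 1 h libraries lay below CRE basal, with a difference of -0.34 ± 0.03 (SE, n = 3 per group, limma adjusted p = 2.06e-10). The receptor Nbr1 fell by 0.42 and the initiation factor Rb1cc1 by 0.51, while Atg7, which activates ATG8 proteins, rose by 0.36. Of 33 lysosome genes and TFEB targets, 9 fell, near the 25% of all tested genes, and 2 rose. The risen numbered from 0, without CRE basal replicate 3, to 4, after the common-median scaling. Fnip1, Fnip2 and Flcn, which form folliculin complexes that signal amino acids to TFEB and TFE3, fell by 0.54, 0.60 and 0.45, while the cathepsins Ctsd, Ctsb and Ctsl were between 0.01 and 0.04 and did not pass.

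Of 22 unfolded protein response genes 8 fell and 3 rose (6 after the common-median scaling). The largest fall was Herpud1 at -2.10, which the ATF4 list also holds. Dnajb9 was at -1.18 and Xbp1 at -0.58, while the chaperone Hspa5 was at -0.08 (limma adjusted p = 0.087). Of 17 TGF-beta targets 8 fell and 3 rose, with Skil, a repressor of SMAD signalling, at -1.04. Of 18 NF-kB targets and chemokines 9 fell and none rose, with the growth factor Csf1 at -0.64 and the chemokine Cxcl5 at -0.59. Of 30 extracellular matrix genes 10 fell and 3 rose, with tenascin C (Tnc) at -0.75. On the splicing speckle and SR protein list, 9 of 22 fell and 2 rose, with the kinase Clk4 at -0.44. That list also holds Snhg1, at -0.92, a non-coding snoRNA host gene and not a splicing factor. The risen on that list numbered 1 in every fit that left out a library of this comparison. Of 31 interferon-stimulated genes 9 fell, beside 25% of all tested genes, and 1 rose, with the antigen peptide transporter Tap1 at -0.76. That count rests on single libraries: 23 fell without CRE basal replicate 1 and 5 without CRE 1 h replicate 3, and 3 when only the compared groups were fitted. None of the 2 tested macrophage markers passed, and of the 3 tested neuron or glia markers 1 rose and 1 fell, a fall that was lost without CRE basal replicate 3. The rise, Map2 at 0.15 (limma adjusted p = 0.0413), was lost in 8 of the 15 other fits, among them those without CRE 1 h replicate 2 or 3 and without CRE basal replicate 2 or 3, with adjusted p from 0.00549 to 0.186.

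The same contrast under the GFP heading went the opposite way for most of these genes. That comparison uses 6 other libraries, GFP 1 h minus GFP basal, and called 58.8% of the tested genes, 29.2% higher and 29.6% lower. The difference between the 2 contrasts was tested as an interaction, and passed for 8901 genes (64%), 4497 with CRE above GFP (32.3%) and 4404 below (31.7%). Of 5193 genes called under both headings, 4973 went in opposite directions and 220 in the same one. Across the 13914 genes the differences had a Pearson r of -0.73, a description across genes, which are not independent replicates. Of the 72 genes lower by at least 1 under CRE, 71 were called higher under GFP, and all 72 differed by the interaction. The interaction contains the CRE difference by which the 72 were chosen, so that last count is no separate support. The common-median scaling added 0.13 to each interaction difference and turned the split into 5878 and 3433 genes, so the share with CRE above GFP went from 50.5% to 63.1%.

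**Figure D4:**
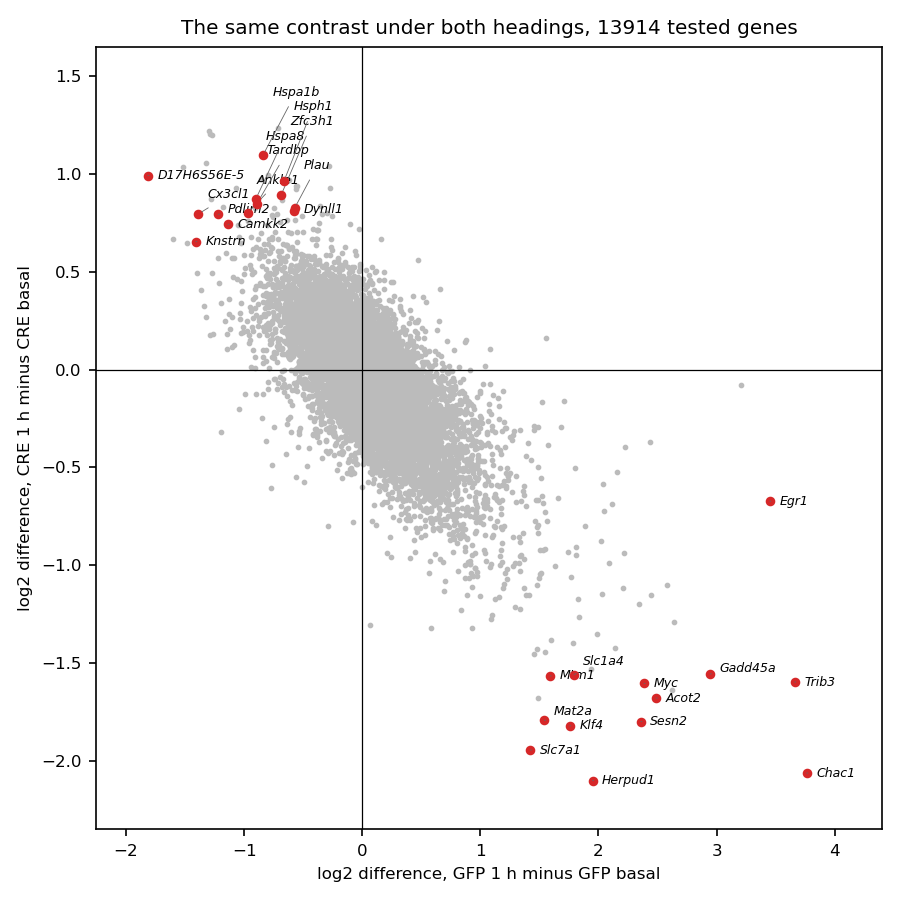
Log2 difference of CRE 1 h minus CRE basal (vertical axis) against that of GFP 1 h minus GFP basal (horizontal axis) for 13914 tested genes, 1 point per gene, with the named genes in red. The cloud slopes downward with an r of -0.73, and Chac1 lies at -2.06 under CRE and 3.76 under GFP.

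Chac1 was at 9.27, 9.27 and 9.32 in GFP basal and at 13.01, 13.04 and 13.10 in GFP 1 h, so it rose by 3.76 under GFP and fell by 2.06 under CRE. The interaction was -5.83 ± 0.07 (SE, n = 3 in each of 4 groups, limma adjusted p = 4.24e-32). Trib3 rose by 3.66 under GFP, Sesn2 by 2.36, Herpud1 by 1.95 and Mat2a by 1.54. Of the 49 ATF4-list genes 48 rose under GFP and none fell. The clock list gave 14 higher and none lower under GFP, the early response list 30 higher and 3 lower, the cholesterol list none higher and 24 lower, and the heat shock list none higher and 10 lower. Bhlhe40 differed: it fell by 0.78 under CRE and was at -0.08 under GFP (limma adjusted p = 0.27). Pik3r4 was at -0.01 under GFP, and its interaction of -0.08 ± 0.07 (SE, n = 3 in each of 4 groups) did not pass (limma adjusted p = 0.344).

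**Figure D5:**
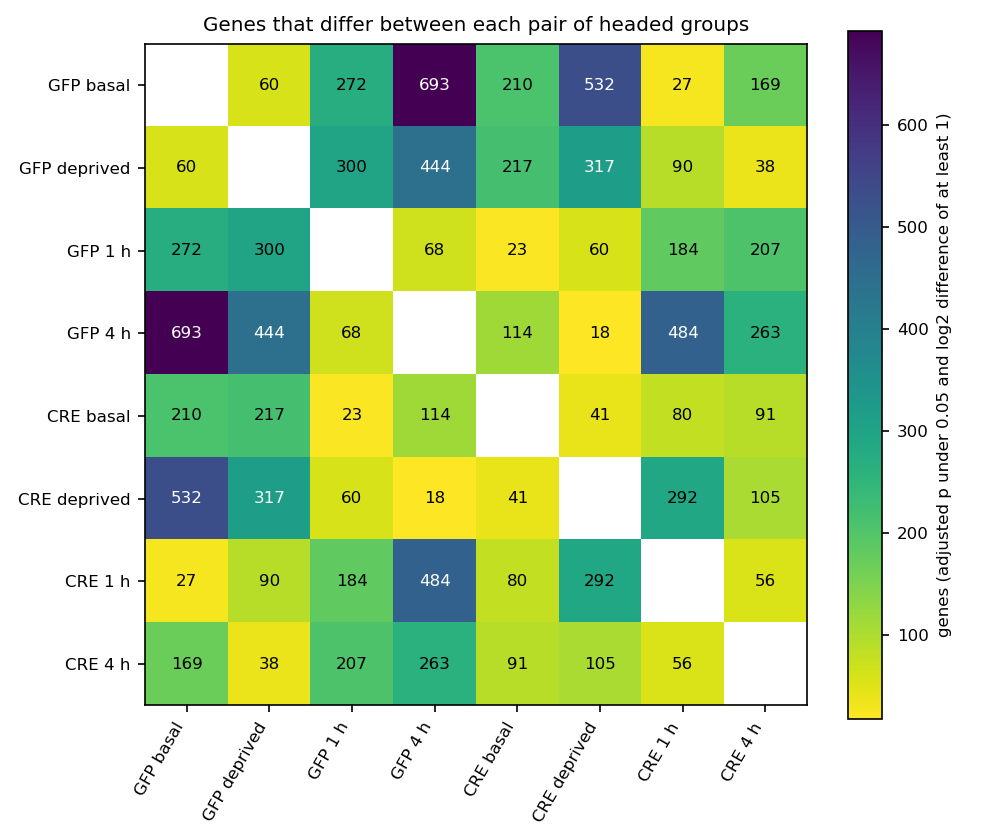
Number of tested genes called and different by at least 1 on the log2 scale, for each of the 28 pairs of headed groups. CRE 1 h has 27 against GFP basal and 80 against CRE basal, and CRE basal has 23 against GFP 1 h.

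Over all 28 pairs of headed groups, the number of genes called and different by at least 1 ran from 18 to 693. CRE 1 h against CRE basal had 80 (0.575%). The group with the fewest such differences from CRE 1 h was GFP basal, with 27 (0.194% of those tested), and the group with the fewest from CRE basal was GFP 1 h, with 23 (0.165%). Mat2a had means of 12.34 in GFP basal, 12.17 in GFP deprived, 11.80 in CRE 1 h and 11.43 in CRE 4 h. Its means were 13.89 in GFP 1 h, 13.77 in GFP 4 h, 13.60 in CRE basal and 13.59 in CRE deprived. By heading, Mat2a was thus low in basal and deprived medium and high after replenishment under GFP, and the reverse under CRE. By position, the 4 high groups would be WT and Vps15KO cells deprived of methionine or replenished for 1 h, and the 4 low groups those in basal medium or replenished for 4 h.

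Pik3r4 and Sqstm1 were also set against both readings. Between groups that sit next to each other in the table, Pik3r4 differed by -0.27 in GFP deprived minus GFP basal (limma adjusted p = 0.000219) and by -0.28 in CRE deprived minus CRE basal (adjusted p = 9.82e-05). It differed by -0.17 in GFP 4 h minus GFP 1 h (adjusted p = 0.00886) and by -0.27 in CRE 4 h minus CRE 1 h (adjusted p = 0.000175). Sqstm1 was higher in the second group of the same pairs, by 0.69, 0.47, 0.48 and 0.49 in that order, and passed the test in each. By position each of these 4 pairs would be Vps15KO against WT in 1 medium. Between CRE and GFP under the same heading, Pik3r4 was higher in CRE by 0.23 in basal medium, 0.21 in deprived and 0.15 at 1 h, each past the test, and was at 0.05 at 4 h (limma adjusted p = 0.414). In the same order of media the CRE minus GFP difference of Sqstm1 was 0.75, 0.53, -0.23 and -0.22, each past the test. Which reading holds was not tested.

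Read by heading, Vps15KO cells given methionine back for 1 h had lower ATF4, clock and early response messages and more heat shock messages than Vps15KO cells in basal medium. The interaction is then the difference of that response between Vps15KO and WT cells. Read by position, the same messages fell, and heat shock messages rose, in WT cells between 1 h and 4 h of replenishment. The interaction would then set that step against WT cells deprived for 4 h minus WT cells in basal medium, and would hold no effect of the knockout.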

How the data were processed

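The deposited MEF values were log2 values after a variance-stabilizing transformation by the authors, and STAR 2.7.10b, featureCounts, DESeq2 and limma on mm10 are listed per the submitters' processing notes. The deposited liver counts were read only for depth, 9110836 to 12870944 per library, and liver was not analysed here. MEF libraries held 19345029 to 21245006 counts, recovered by undoing the transformation (100% whole within 0.01). The recovered counts gave the depth, the marker sums in CPM and the chi-square values between replicates. They also gave the edgeR fold values and the edgeR and DESeq2 alternatives. The number of columns not used was 0.

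The log2 values of 24 libraries in 8 groups of 3 were fitted with limma 3.58.1 in R 4.3.3 (mean-variance trend, robust moderation). Genes entered where the mean of the 24 values reached the table's minimum of 4.17 plus 1, which left 13914, and Benjamini-Hochberg adjusted p-values under 0.05 over all of them were called. The steps were tested on simulated data. Members, lists and tests were chosen with earlier results of these data known.

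Named were 7 genes whatever their p (Pik3r4, Pik3c3, Becn1, Mat2a, Atf4, Ddit3, Sqstm1), the 12 largest rises and 12 largest falls (adjusted p under 0.05, libraries not overlapping, higher mean at or above the median of tested genes, no Gm or Rik symbols), up to 6 members of each list with the smallest p, all members of short lists, and the 6 largest differences in each direction between headings (same conditions without that on overlap). Other list members are named as examples, chosen after their values were seen. Lists overlap. Promoters came from RefSeq (GRCm38.p6) by symbol. Alternatives were edgeR 4.0.16 with TMM or RLE factors and DESeq2 1.42.0 on recovered counts, every library brought to 1 median, a fit with no filter or with no trend, a fit of the compared groups alone, the replicate number as a block and each of the 6 libraries left out in turn. A fit without CRE 4 h replicate 3 was chosen after seeing the data.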

Additional observations from a re-analysis of the deposited data

Results flagged for a closer look

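The change from basal medium to 1 h of replenishment differed between the CRE and GFP headings by the interaction test of limma for 4497 genes with CRE above GFP and 4404 with CRE below. Among genes whose higher group mean was at least the median of tested genes, the largest differences with CRE above GFP, on the log2 scale, were 2.81 for D17H6S56E-5, 2.18 for Cx3cl1, 2.06 for Knstrn, 2.01 for Pdlim2, 1.94 for Hspa1b and 1.88 for Camkk2. Under the same condition the largest with CRE below GFP were -5.83 for Chac1, -5.26 for Trib3, -4.50 for Gadd45a, -4.17 for Acot2, -4.16 for Sesn2 and -4.12 for Egr1. Ciart, which falls outside that condition, was at -4.26. By heading these are differences of the response between Vps15KO and WT cells. By position they would compare WT cells replenished for 4 h against 1 h with WT cells deprived against basal. The 2 readings cannot be told apart by this test.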

How the results depend on the processing

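Of the 206 genes followed through the alternatives, none that passed the test changed sign. Among those that did not pass, Csf1r, Elovl5, Fads1, ND3 and ND6 changed sign. List members named only as examples were not followed. The balance of higher and lower calls turned: 3229 and 3476 became 4386 and 2767 with every library at 1 median, and 4497 and 4404 for the interaction became 4372 and 4476 with no filter. The counts of genes different by at least 1 moved with the scale: 8 higher and 72 lower became 131 and 209 with edgeR (TMM), 133 and 206 with edgeR (RLE) and 100 and 168 with DESeq2, which do not compress low values, and the number higher was 13 with each library shifted to 1 median. Leaving out each library in turn gave 2780 to 2934 genes higher, 3150 to 3212 lower, 9 to 11 higher and 70 to 85 lower by at least 1, and 4302 to 4423 and 4262 to 4334 for the interaction. The replicate number as a block gave 3296 higher and 3510 lower, 8 and 72 by at least 1, and 4530 and 4426 for the interaction. The numbers do not pair the samples: same-numbered deviations correlated at 0.02, -0.04 and 0.05, and 1 h libraries did not each correlate best with their own number. Without CRE 4 h replicate 3, which stood apart from its group (chi-square per degree of freedom 16.3 and 18.1), 3521 were higher and 3671 lower. Of the 206 followed genes, 185 kept their call in all alternatives, 16 lost it in some and 5 gained one. The number of libraries per group, 3, limits small differences.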
